A study of Mus musculus with 6 samples.

Results

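Gdf9, Bmp15, Bmp6, Fgf8, Oosp1, Oosp2, Oosp3 and Kit were taken by symbol from a table of 25631 genes measured in oocytes of naturally aged mice, and all 8 genes were found in it once. They were chosen as the genes for proteins that the oocyte secretes, together with the receptor through which the oocyte receives a signal of the granulosa cells, and the rule used no measured value. RNA was sequenced from oocytes of 14-month-old ICR mice, an outbred stock, freed by puncturing large antral follicles that had been stimulated with equine chorionic gonadotropin. The control group (3 libraries, labelled aged and untreated) drank water, and the aminophylline group (3 libraries, labelled aged and aminophylline) received aminophylline at 4.0 mM in its drinking water during 1 week, followed by 3 weeks on plain water. Aminophylline is a complex of theophylline with ethylenediamine and inhibits phosphodiesterases, the enzymes that break down cAMP. The number of mice and the number of oocytes behind each library are not given in the sources used here, so the p-values below measure the spread between libraries, which may be technical in part.

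Growth differentiation factor 9 (GDF9) and bone morphogenetic protein 15 (BMP15) are ligands of the TGF-beta superfamily that are made almost exclusively by oocytes in the ovary. They bind serine-threonine kinase receptors on granulosa and cumulus cells, signal through SMAD proteins and drive follicle growth, cumulus expansion and cumulus metabolism. KIT works in the other direction, since its ligand comes from granulosa cells and activates the PI3K/Akt pathway in the oocyte. The comparison asked whether oocytes of aged mice carried different amounts of these transcripts after aminophylline.

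The oocyte-secreted proteins OOSP1, OOSP2 and OOSP3 are encoded side by side on chromosome 19 (GRCm38, GENCODE M21). Oosp2 lies at 11647279 to 11660559 and Oosp1 at 11667460 to 11691150, both on the minus strand, and Oosp3 at 11697055 to 11711874 on the plus strand, so that the cluster spans 64596 bases. Gdf9 lies on chromosome 11 (53431023 to 53437904, plus strand), Bmp15 on chromosome X (6314107 to 6320721, minus strand), Bmp6 on chromosome 13 (38345107 to 38500302, plus strand), Fgf8 on chromosome 19 (45736798 to 45742915, minus strand) and Kit on chromosome 5 (75574916 to 75656722, plus strand). In the RefSeq annotation the first bases of Gdf9 overlap Uqcrq by 58 bases and the last bases of Bmp6 overlap Txndc5 by 49 bases, and reads there cannot be assigned if the counting did not use strand. The span of Bmp6 also overlaps 4930579J19Rik by 1554 bases, and that of Oosp3 overlaps Gm19224 by 1481 bases. No FPKM is given for these genes, and their part in the values was not tested. The promoters of 2 of the highest genes of the set in these libraries (Oosp1 and Oosp2), of the second TGF-beta ligand (Bmp15) and of the lowest gene (Kit) are shown for their base composition. No window was available for Gdf9, the highest gene, or for Fgf8 and Oosp3, so base composition cannot be set against level over the whole set. Kit had 2 windows, of which 1 is shown and described. Each window runs from 250 bases before to 50 bases after the gene's start (RefSeq, GRCm38.p6), 5′ to 3′ on the strand of the gene. Capitals mark CANNTG, the E-box that basic helix-loop-helix factors such as FIGLA bind, and TAATTG or TAATTA, the core bound by homeodomain factors such as NOBOX, each searched on both strands.
Oosp1 (chr19:11691002-11691301, minus strand): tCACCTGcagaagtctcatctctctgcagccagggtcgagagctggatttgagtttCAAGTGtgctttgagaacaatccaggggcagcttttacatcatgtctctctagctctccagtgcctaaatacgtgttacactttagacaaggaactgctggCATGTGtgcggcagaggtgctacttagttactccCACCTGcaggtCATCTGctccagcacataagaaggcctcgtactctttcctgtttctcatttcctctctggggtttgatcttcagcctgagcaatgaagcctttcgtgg
Oosp2 (chr19:11660510-11660809, minus strand): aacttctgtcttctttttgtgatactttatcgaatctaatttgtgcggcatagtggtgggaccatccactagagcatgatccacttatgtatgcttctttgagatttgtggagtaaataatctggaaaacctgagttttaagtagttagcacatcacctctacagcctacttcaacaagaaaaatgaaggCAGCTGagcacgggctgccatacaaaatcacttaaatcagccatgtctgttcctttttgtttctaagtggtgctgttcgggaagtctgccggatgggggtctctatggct
Bmp15 (chrX:6320675-6320974, minus strand): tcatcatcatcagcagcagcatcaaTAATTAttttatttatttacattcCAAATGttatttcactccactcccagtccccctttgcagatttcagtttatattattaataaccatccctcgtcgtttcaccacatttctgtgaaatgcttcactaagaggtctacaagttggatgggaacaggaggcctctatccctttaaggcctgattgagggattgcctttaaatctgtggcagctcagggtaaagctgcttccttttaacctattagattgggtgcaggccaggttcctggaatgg
Kit (chr5:75574737-75575036, plus strand): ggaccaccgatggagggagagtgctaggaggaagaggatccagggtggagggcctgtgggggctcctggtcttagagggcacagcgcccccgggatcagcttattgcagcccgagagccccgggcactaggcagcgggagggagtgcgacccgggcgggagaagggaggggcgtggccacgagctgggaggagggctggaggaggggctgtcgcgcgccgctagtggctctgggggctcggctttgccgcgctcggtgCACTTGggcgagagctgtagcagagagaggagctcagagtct

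The Oosp1 window held 5 E-boxes and the Oosp2 and Kit windows 1 each. The Bmp15 window held 1 E-box, 1 homeodomain core and 1 TATAAA. This last motif lay on the strand opposite to that of the gene and is not marked by capitals. Of the 32851 promoter windows of this length, 72.3% held an E-box, 12.4% a homeodomain core and 13.6% TATAAA, so an E-box alone did not set these genes apart. The windows also differed in base composition. The Oosp1, Oosp2 and Bmp15 windows held 5, 5 and 2 CG dinucleotides and a GC content of 49.3%, 42.3% and 41.7%, while the windows of Kit and Bmp6 held 20 and 27 CG dinucleotides and a GC content of 69% and 69.3%. The median over all windows was 7 CG dinucleotides and a GC content of 52.7%. These are descriptions of 5 windows, no binding was measured, and a relation of base composition to level was not tested.

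Expression is given as FPKM, the fragments counted on a gene scaled to the length of its transcript and to the size of the library. Levels of different genes are thus given per length. The scaling does not remove the trends of single libraries with transcript length that are described below. The libraries held 14112341 to 33641283 reads, recovered as whole numbers from the FPKM steps, and control library 2 was the shallowest. Genes entered the test when 3 or more of the 6 libraries reached an FPKM of 1, and all 8 members did so in every library. Oocyte markers were abundant, with a summed FPKM over 12 genes of 6360 to 9775 in the control and 7461 to 8656 in the aminophylline libraries, whereas 10 granulosa markers summed to 16.1 to 24.0 and 17.4 to 22.6 and 8 theca and stroma markers to 2.32 to 3.65 and 3.48 to 4.84. Foxl2 and Amh, which define granulosa cells, were at or under an FPKM of 0.197 in every library. Other granulosa markers of the list were present. Most of the granulosa sum came from Cyp19a1 (FPKM of 7.37 to 15.7) and Nr5a2 (4.43 to 8.53), and Inha reached 1.66. The source of these transcripts was not tested. Control library 1 stood apart in macrophage markers. Leaving out C1qb, which had an FPKM of 72.3 in control library 1 and of 79.2 to 99.8 in the other 5 libraries, the other 11 markers summed to 187 in control library 1 and to 1.30 to 3.15 elsewhere, and the sum over all 12 was 260 against 81.1 to 102. In such pooled RNA, fewer oocytes and less RNA per oocyte cannot be told apart.

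The 8 transcripts together made up 1.39% to 1.75% of the summed FPKM of a library. Gdf9 was the highest at a mean FPKM of 2966 over the 6 libraries and ranked between 14 and 36 among all genes of a library. Oosp2, Oosp1 and Oosp3 followed at 1836, 1808 and 1786 and ranked between 18 and 35. Bmp15 was lower at 465, Fgf8 at 90.4, Bmp6 at 22.6 and Kit at 16.5, where Kit ranked between 2658 and 4318. Neighbours were compared in the order of these same means, so the p-values describe how steady that order was between libraries and are no independent test of it. No adjusted p was under 0.05. Oosp3 exceeded Bmp15, Bmp15 exceeded Fgf8, Fgf8 exceeded Bmp6 and Bmp6 exceeded Kit in 6 of 6 libraries, each with an exact permutation p of 0.03125 (two-sided, sign changes over 6 libraries, adjusted p = 0.0547 over 7 neighbouring pairs), the smallest that 6 libraries allow. The neighbours Oosp2 and Oosp1 (ratio 1.01, exact permutation p = 0.812) and Oosp1 and Oosp3 (ratio 1.01, exact permutation p = 0.531) did not differ beyond their spread. Gdf9 exceeded Oosp2 in 5 of 6 libraries, the exception being control library 1 (exact permutation p = 0.0625, adjusted p = 0.0875).

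**Figure D1:**
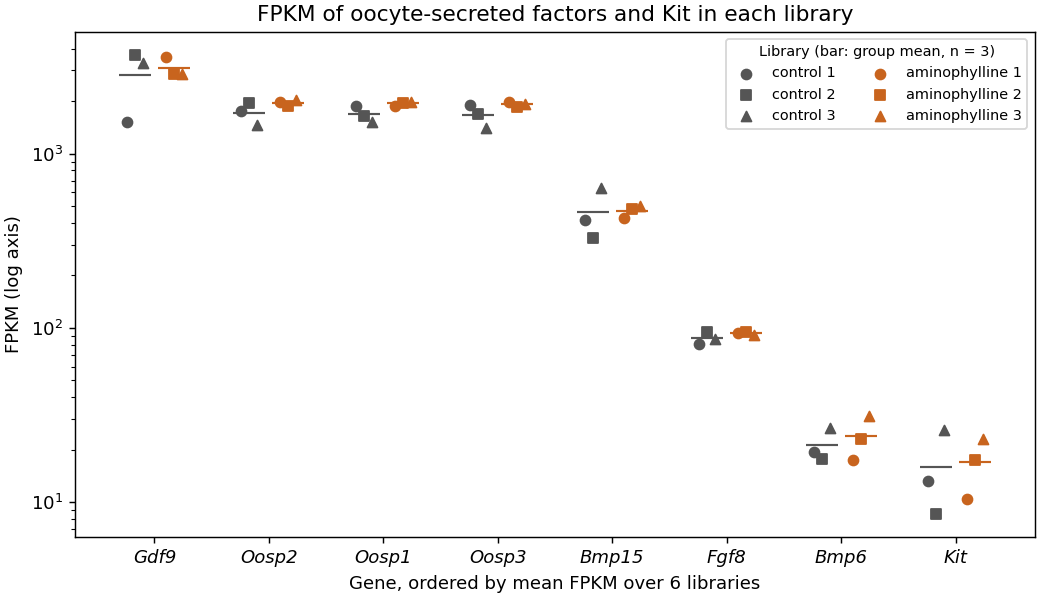
FPKM of the 8 genes on a log axis, with 1 point per library (circle, square and triangle for replicates 1, 2 and 3), control libraries in grey, aminophylline libraries in orange and bars at the group means (n = 3). The levels run from Gdf9 at 1518 to 3663 down to Kit at 8.60 to 25.9, and the groups overlap for every gene but Oosp1, where they nearly touch.

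None of the 8 transcripts passed a threshold for a difference between the aminophylline and the control group, with 3 libraries in each. With limma's moderated test, 0 of the 8 members passed an unadjusted p of 0.05 with a fold change over 1.5, against 3.21% of the 10340 genes tested (2.08% higher and 1.13% lower with aminophylline), 0 had an unadjusted p under 0.05, against 7.25%, and 0 had an adjusted p under 0.05, against 0% of all genes. The voom test on the recovered reads also called 0 members. All 8 members had a higher aminophylline than control mean on the log2(FPKM + 1) scale, as did 64.8% of all genes tested. The median log2 difference of the members was 0.18, and the median of all tested genes was 0.10.

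Gdf9 (NCBI gene 14566), the ligand without which mouse follicles do not grow past an early stage, had an FPKM of 1518, 3663 and 3305 in the control libraries and of 3597, 2845 and 2865 in the aminophylline libraries. Control library 1 was far below the other 5 libraries, which lay between 2845 and 3663 and overlapped between groups. The log2 difference was 0.22 (95% interval -0.41 to 0.86, limma adjusted p = 0.836), and without control library 1 it was -0.17. Control library 1 also had the lowest sum of oocyte markers and the highest sum of macrophage markers (6360 and, without C1qb, 187 FPKM). Zp3 alone gave 3068 of that oocyte sum. The single oocyte markers were mixed. Zp3, Figla, Nobox, Nlrp5, Mos, Npm2 and Padi6 were lowest in control library 1. Zp1, Zp2, Ddx4 and Dazl were not, and Oog1 was highest there (98.5 FPKM). The part of these markers in the low Gdf9 value was not tested. Its low value rested on 115496 reads. Uqcrq, the gene that overlaps the start of Gdf9, had an FPKM of 193, 255 and 184 in the control and of 298, 293 and 247 in the aminophylline libraries, and the part of the overlap in the Gdf9 values was not tested.

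Bmp15 (NCBI gene 12155), the X-linked partner of GDF9 in promoting cumulus function, had an FPKM of 416, 330 and 638 in the control and of 429, 478 and 501 in the aminophylline libraries. The control libraries held both the lowest and the highest value, with all aminophylline libraries between them. The group means were 461 ± 159 (SD, n = 3) and 469.6 ± 36.8 (SD, n = 3), and the log2 difference was 0.08 (95% interval -0.41 to 0.56, limma adjusted p = 0.935). Bmp6 (NCBI gene 12161), a BMP that oocytes secrete beside GDF9 and BMP15, had an FPKM of 19.4, 17.7 and 26.7 in the control and of 17.6, 23.1 and 31.2 in the aminophylline libraries. Its log2 difference was 0.15 (95% interval -0.38 to 0.67, limma adjusted p = 0.877), with replicate 3 the highest library of each group.

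Fgf8 (NCBI gene 14179), a fibroblast growth factor that acts with BMP15 to raise glycolysis in cumulus cells, was the steadiest of the 8 transcripts. Its FPKM was 81.4, 95.3 and 86.2 in the control and 94.0, 94.4 and 91.5 in the aminophylline libraries, a range of 1.17-fold. Over the 6 libraries its SD was 0.09 on the log2 scale, and only 1.86% of the tested genes had a lower one. This share was taken over genes of all levels, and genes of like level were not compared separately. The log2 difference was 0.09 (95% interval -0.24 to 0.42, limma adjusted p = 0.876), so that a rise over 1.34-fold or a fall below 0.849-fold lay outside the interval.

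The 3 Oosp genes, whose proteins are secreted by the oocyte and have no well-defined role, came nearest to a difference. Oosp1 (NCBI gene 170834) had an FPKM of 1881, 1633 and 1524 in the control and of 1883, 1946 and 1982 in the aminophylline libraries. The groups did not overlap, by a margin of less than the counting error between control library 1 and aminophylline library 1, and 12.5% of all tested genes likewise did not overlap (7.51% higher and 4.96% lower with aminophylline). Oosp2 (NCBI gene 225922) had an FPKM of 1749, 1941 and 1453 against 1972, 1880 and 2019, and Oosp3 (NCBI gene 225923) one of 1887, 1676 and 1397 against 1962, 1859 and 1935. For both genes 1 control library lay within the range of the aminophylline group, and control library 3 was the lowest of all 6 for each of the 3 genes. The log2 differences were 0.21, 0.20 and 0.23 for Oosp1, Oosp2 and Oosp3 (95% intervals -0.12 to 0.54, -0.15 to 0.55 and -0.13 to 0.58), with limma adjusted p-values of 0.733, 0.760 and 0.733. For Oosp1, the gene whose groups did not overlap, the exact permutation p was 0.1, the smallest that 3 libraries against 3 allow. With quantile normalization, where the median of all genes was 0.01, the unadjusted limma p was 0.0368 for Oosp1, 0.0375 for Oosp2 and 0.043 for Oosp3, with adjusted p-values of 0.566, 0.566 and 0.577. With median centring, where the median of all genes was also 0.01, the unadjusted limma p was 0.618, 0.664 and 0.599 for Oosp1, Oosp2 and Oosp3.

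Kit (NCBI gene 16590), the receptor tyrosine kinase of the oocyte surface, varied most. Its FPKM was 13.3, 8.60 and 25.9 in the control and 10.5, 17.5 and 23.2 in the aminophylline libraries, a 3.01-fold range in which both groups had a low and a high library. The group means were 15.9 ± 8.94 (SD, n = 3) and 17.04 ± 6.34 (SD, n = 3), with a log2 difference of 0.16 (95% interval -0.65 to 0.96, limma adjusted p = 0.921). Of the tested genes of all levels, 97.9% had a lower SD over the 6 libraries. The lowest value rested on 629 reads, a counting error of 3.99%. The 5 mast cell markers in the table, a cell type that also carries KIT, summed to at most 0.776 FPKM in any library, and their part in the Kit values was not tested.

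**Figure D2:**
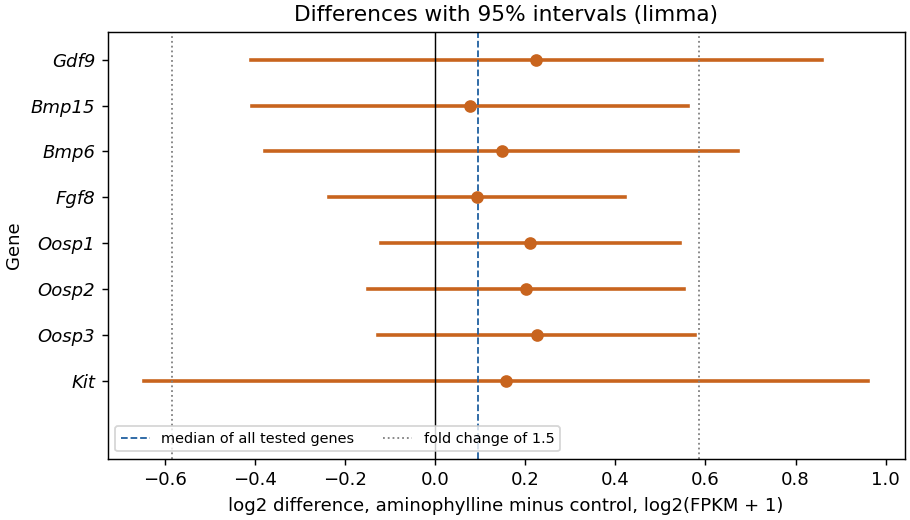
Log2 difference between the group means on the log2(FPKM + 1) scale for each gene (points) with its 95% interval from limma (bars, n = 3 against 3), with lines at 0, at the median of all tested genes (0.10) and at a fold change of 1.5. Every interval includes 0, the narrowest is that of Fgf8 and the widest that of Kit.

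Ratios of 2 transcripts within a library do not depend on how the libraries are scaled. A trend of a library with transcript length, described below, does not cancel between genes of unlike length, such as Kit (5182 bases) and Gdf9 (2261 bases). Ratios without this trend were not computed. The FPKM of Bmp15 was 27.4%, 9.01% and 19.3% of that of Gdf9 in the 3 control libraries, against 11.9%, 16.8% and 17.5% with aminophylline. The ratio of these 2 transcripts thus spread most within the control group, and the aminophylline libraries lay inside its range, with a log2 difference of -0.15 (exact permutation p = 0.8, adjusted p = 1 over 5 ratios, two-sided). This difference was 0.21 without control library 1, -0.60 without control library 2 and 0.03 without aminophylline library 1. Bmp6 was 0.857% ± 0.401 and 0.795% ± 0.2998 of Gdf9 in the control and aminophylline group, and Kit 0.632% ± 0.347 and 0.571% ± 0.261 (SD, n = 3), with exact permutation p-values of 1 and 0.9. Their log2 differences, -0.07 and -0.05, likewise turned with single libraries, to 0.27 and 0.29 without control library 1 and to -0.43 and -0.66 without control library 2. The ratios of Oosp2 and Oosp3 to Oosp1 lay between 0.917 and 1.19 in every library. Oosp2 was 0.930, 1.19 and 0.953 times Oosp1 in the control and 1.05, 0.966 and 1.019 times in the aminophylline libraries, and Oosp3 was 1.003, 1.03 and 0.917 times and 1.04, 0.955 and 0.976 times Oosp1.

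Bmp15, Bmp6 and Kit were high in control library 3, where the Oosp genes were lowest, but the 2 sets did not move oppositely in every library, since in aminophylline library 3 Kit (log2 deviation from the mean of 0.56) and Bmp6 (0.48) were high together with Oosp1, Oosp2 and Oosp3 (0.14, 0.15 and 0.13). Kit and Bmp15 were both highest in control library 3 and lowest in control library 2, where Bmp6 was also among its 2 lowest values. From control library 2 to control library 3 the log2 value rose by 1.49 for Kit, 0.95 for Bmp15 and 0.56 for Bmp6, while it fell by 0.10 for Oosp1, by 0.42 for Oosp2 and by 0.26 for Oosp3. The transcript lengths behind the FPKM values, recovered with the reads, were 5182 bases for Kit, 3116 for Bmp15 and 2996 for Bmp6, but 873, 673 and 807 bases for Oosp1, Oosp2 and Oosp3. The tested genes as a whole also differed by length. Between the same libraries the median log2 value rose by 0.46 for the 3354 genes over 4000 bases and by 0.33 for the 3298 genes of 2000 to 4000 bases, while it fell by 0.04 for the 2236 genes of 1000 to 2000 bases and by 0.38 for the 1452 genes under 1000 bases. Fgf8, at 1809 bases, had a difference of -0.14, of the same sign as its class, and Gdf9, at 2261 bases, had one of -0.15, opposite in sign to its class.

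**Figure D3:**
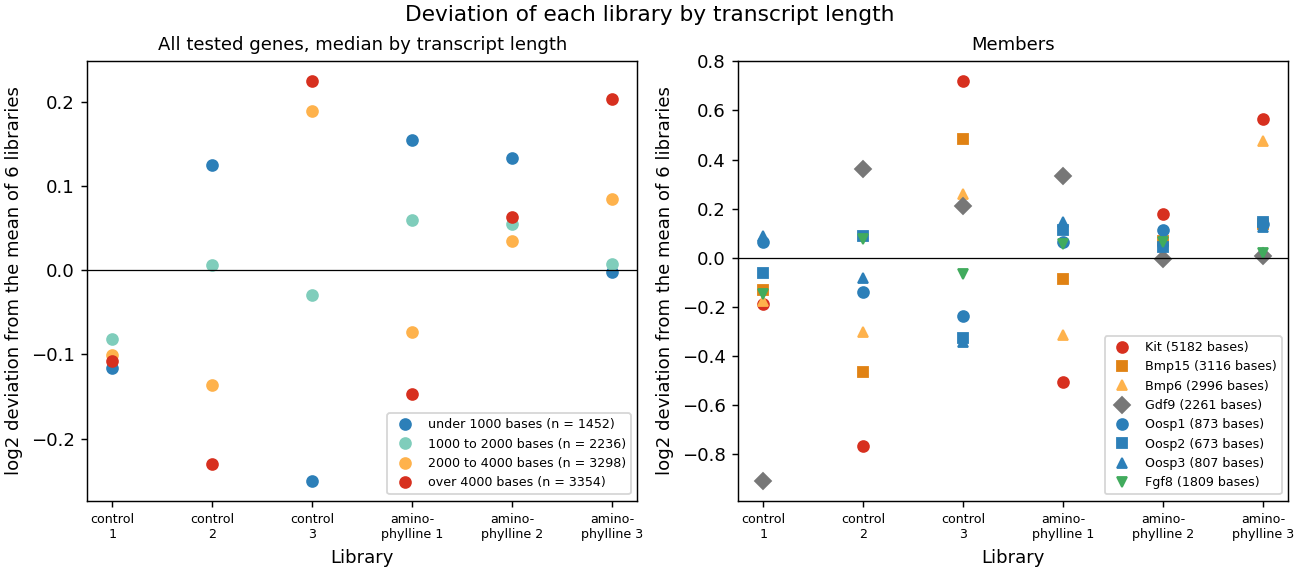
Log2 deviation of each library from the mean of the 6 libraries, on the left as the median of all tested genes in 4 classes of transcript length and on the right for each member. Control library 3 and aminophylline library 3 have long transcripts above and control library 2 and aminophylline library 1 below the mean, and Kit takes the same order with larger deviations (0.72, 0.56, -0.77 and -0.51).

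When the trend with transcript length was removed from each library, an analysis added after the values were seen, the SD over the 6 libraries fell from 0.32 to 0.19 on the log2 scale for Bmp15, from 0.32 to 0.21 for Bmp6, from 0.18 to 0.09 for Oosp2 and from 0.59 to 0.41 for Kit. It hardly moved for Gdf9 (0.47 and 0.45), Fgf8 (0.09 and 0.09) and Oosp1 (0.15 and 0.15). The differences between the groups became smaller for all 8 members, at 0.21 for Gdf9, 0.02 for Bmp15, 0.10 for Bmp6, 0.05 for Fgf8, 0.07 for Oosp1, 0.03 for Oosp2, 0.08 for Oosp3 and 0.07 for Kit, where the median of all tested genes was 0.01. For the Oosp genes, the values nearest to a difference, the unadjusted limma p was then 0.610, 0.784 and 0.584. The removal takes out the shift of each library as a whole together with its trend with length, so the 2 were not separated. Median centring without it gave log2 differences of 0.14 for Gdf9, -0.0041 for Bmp15, 0.06 for Bmp6 and 0.01 for Fgf8. It gave 0.13, 0.12 and 0.14 for Oosp1, Oosp2 and Oosp3 and 0.08 for Kit.

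**Figure D4:**
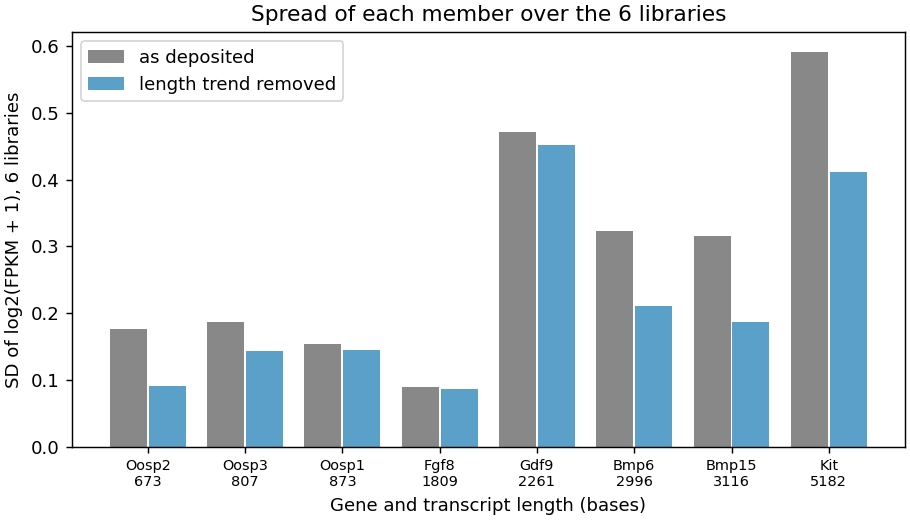
SD of log2(FPKM + 1) over the 6 libraries for each member, ordered by transcript length, with the deposited values in grey and after removal of each library's length trend in blue. The bars of Bmp15, Bmp6, Oosp2 and Kit shrink most, while that of Gdf9 stays at 0.45.

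The genes whose pattern over the 6 libraries was most like that of a member were sought among 4272 tested genes with a mean FPKM of at least 10. Those most like Gdf9 were Serhl, Ergic3 and C8g (Pearson r of 0.996, 0.986 and 0.983 over 6 libraries), which shared its low value in control library 1, such as 52.1 against 79.2 to 91.1 for Ergic3. Those most like Bmp15 were Atp5b, AY512915 and Ghitm (0.981, 0.979 and 0.978), and those most like Kit were Eif4g2, Fbxo43 and Orc1 (0.997, 0.997 and 0.996). Eif4g2, with a transcript of 7760 bases, had an FPKM of 14.1, 9.46 and 28.4 in the control and of 12.2, 18.9 and 26.4 in the aminophylline libraries, the same order of libraries as Kit. The points share their libraries and the largest of many values was taken, so these figures describe likeness only.

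The genes that pass on or answer these signals were read from 9 lists of 89 genes, of which 42 were tested. None passed an unadjusted p of 0.05 with a fold change over 1.5 in limma, against 3.21% of all genes, 1 had an unadjusted p under 0.05 and 0 had an adjusted p under 0.05, and the median log2 difference was 0.13. Of the receptors for TGF-beta ligands, 6 of 12 were tested and 0 were called, with a median log2 difference of 0.14. Bmpr2, the type II receptor of GDF9 and BMP15, had a mean FPKM of 2.57 and 2.80 in the control and aminophylline group, Bmpr1b, the type I receptor of BMP15, 7.38 and 8.04, Bmpr1a 3.29 and 3.51, and Tgfbr1, the type I receptor of GDF9, 0.903 and 1.42. Acvr1b, an activin receptor, had the smallest p of this list, with 1.56 and 2.91 (log2 difference 0.59, limma adjusted p = 0.688). With the replicate number as a block Acvr1b was the 1 gene of all lists called (unadjusted p = 0.00858, limma adjusted p = 0.198).

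Of the SMAD proteins 5 of 8 were tested and 0 were called. Smad3, which relays GDF9 and activin signals, had a mean FPKM of 8.92 and 13.0 in the control and aminophylline group (log2 difference 0.50, limma adjusted p = 0.688). Among 13 other ligands of the superfamily 4 were tested and 0 were called. Bmp5 was the gene with the unadjusted p under 0.05. Its FPKM averaged 55.2 in the control and 38.9 in the aminophylline group, above Bmp6 in both, and its highest aminophylline library (43.2) lay just inside the control range of 42.9 to 68.6, with a log2 difference of -0.48 (95% interval -0.93 to -0.02, unadjusted p = 0.0406, limma adjusted p = 0.682). Of the antagonists and SMAD ubiquitin ligases only Smurf1 and Smurf2 passed the filter, and Smurf2 had a mean FPKM of 7.01 and 9.94 (log2 difference 0.46, limma adjusted p = 0.722). Furin, a proprotein convertase that can cleave ligand precursors, had 1.92 and 2.61 (log2 difference 0.31, limma adjusted p = 0.774), and Pcsk6 had 3.24 and 3.21.

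The FGF receptors Fgfr1 and Fgfr2 had a mean FPKM of 0.903 and 2.57 in the control and of 1.36 and 2.84 in the aminophylline group. Spry1, a feedback inhibitor of FGF signalling, had the smallest p of its list, with 24.8 and 20.0 (log2 difference -0.28, limma adjusted p = 0.747). Among other FGF ligands, Fgf7 had 4.13 and 2.76 (log2 difference -0.39, limma adjusted p = 0.755). Kitl, the ligand of KIT from granulosa cells, was below the filter at 0.503 and 0.500. Of the other genes of KIT signalling 15 were tested and 0 were called, with a median log2 difference of 0.19. Akt1 had 4.11 and 5.49, Akt2, with the smallest p of the list, 0.878 and 1.36 (log2 difference 0.33, limma adjusted p = 0.728), and Foxo3, the factor that PI3K/Akt moves out of the nucleus, 14.6 and 14.1. Of the cumulus genes that oocyte factors raise, 1 of 7 passed the filter, Pfkp, with 1.38 and 1.57, and Has2, Ptgs2 and Ptx3 stayed under a group mean of 0.067.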

How the data were processed

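The authors deposited FPKM values per gene and library, made from fragments counted on genes, with no further scaling between libraries. The build is GRCm38 (mm10) per the submitters' processing notes, and the aligner, counting program, annotation and strandedness are not given in the sources used here. The values of 22583 genes above 0 in at least 2 libraries gave whole reads for 100% of genes (within 0.01 reads), with transcript lengths and library totals. Counting errors are square-root errors of these reads, and cover counting only, since PCR copies are not independent molecules.

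Groups were compared on log2(FPKM + 1) with limma (version 3.58.1, R 4.3.3), with a trend on mean expression and no covariate, over the 10340 genes that reached an FPKM of 1 in 3 or more of the 6 libraries. This scale understates changes of weakly expressed genes. Calls were an unadjusted p under 0.05 with a fold change over 1.5, or a Benjamini-Hochberg adjusted p under 0.05 over all tested genes, and the study names an unpaired test. Same-numbered libraries had deviations from the group means correlated at 0.138, 0.140 and 0.552. Libraries of unlike number were not correlated, so these values cannot show whether the numbers mark pairs. The numbers, taken from the labels, were treated as pairs in an alternative with the replicate block. Ratios were tested by exact permutation over libraries. The code was tested on simulated data, with changes larger than the differences of the members and no trend with transcript length. That run cannot tell whether differences as small as those of the members would be found. The named genes were the members, the 3 genes most like Gdf9, Bmp15 and Kit, and from each list the called genes, otherwise those with the smallest p, with 11 genes chosen for their role, of which 1 is not reported here. The members and lists were chosen with earlier results of these data known. Python 3.11.15 and matplotlib 3.10.9 were used for tables and plots.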

Additional observations from a re-analysis of the deposited data

How the results depend on the processing

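The direction and the side of the unadjusted threshold of 0.05 were kept in 135 of the 144 combinations of member and alternative, and 0 members passed the rule of p and fold under any of them. Part of this count was fixed in advance. The 2 changes of filter, the unmoderated linear model and the replicate block leave the log2 difference of a member as it was. Neither its direction nor its fold could change there. The adjusted p of the members ranged from 0.336 to 0.999. The Oosp genes passed the unadjusted threshold with quantile normalization, as given above. With single libraries left out, the log2 difference of Gdf9 ran from -0.17 (without control replicate 1) to 0.46 (without control replicate 2), that of Bmp15 from -0.14 (without control replicate 2) to 0.34 (without control replicate 3), that of Bmp6 from -0.055 (without aminophylline replicate 3) to 0.34 (without aminophylline replicate 1) and that of Kit from -0.19 (without control replicate 2) to 0.56 (without control replicate 3), and that of Kit was -0.09 without aminophylline replicate 3. Those of Oosp2 and Oosp3 fell to 0.09 and 0.11 without control replicate 3. With median centring that of Bmp15 was -0.0041. The cause was not tested. The Bmp15, Bmp6 and Kit ratios to Gdf9 turned in sign with single libraries left out, as given above.

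Of the genes of the 9 lists, 0 were called with all libraries, 1 with the replicate block, 3 with library weights and 0 to 5 with single libraries left out, with 5 (Acvr1b, Smad3, Smad4, Smurf2 and Akt1, all higher) without control replicate 3, 3 (Acvr1b, Smad3 and Smurf2, all higher) without aminophylline replicate 1 and 2 (Bmp5 and Fgf7, both lower) without control replicate 2. Over all genes 332 were called, 200 with the stricter filter (fewer genes tested), 158 with the unmoderated linear model, 975 with library weights, 499 with voom and 183 to 1006 with single libraries left out. Higher genes were 215 of 332 calls, but 147 of 298 with a common sum, 127 of 344 with quantile normalization, 132 of 359 with median centring and 143 of 354 with the length trend removed. The replicate block gave 395 calls and 47 genes with an adjusted p under 0.05, and changed the call of none of the 8 members. With 3 libraries a group, the intervals of Gdf9, Bmp6 and Kit do not bound a change of 1.5-fold.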
